A study of Mus musculus with 16 samples.

Results

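The genes described here are the protein-coding genes whose symbol begins with Nduf, the name given to nuclear-encoded subunits and assembly factors of respiratory complex I. Rows were taken by symbol in the GENCODE M21 annotation of the mouse genome GRCm38, which gave 46 genes of the 55536 rows of the count table. By role they comprise 7 core subunits, 9 accessory subunits of the matrix arm, 19 accessory subunits of the membrane arm, the acyl carrier subunit, 8 assembly factors, and 2 genes, Ndufa4 and Ndufa4l2, that carry the name but are placed outside complex I. A further 5 rows with an Nduf symbol belong to other gene classes, mostly pseudogenes, and were left out. The RNA sequenced came from 8 female mice, each sampled in visceral fat and in red gastrocnemius, part of a calf muscle. Of these mice, 4 were Cre-controls and 4 had the genotype Conditional MusMyD88-/-, a MyD88 knockout in muscle. All 8 had 5 weeks of wheel running and then 8 days of restricted movement in a small mouse cage, so no group shows what the running or the confinement did. The sources used here give neither the promoter that drives Cre nor the age of the mice. Each mouse number appears in 1 muscle and 1 fat library, which makes 16 libraries in 4 groups of 4.

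Complex I, the NADH:ubiquinone oxidoreductase, is the largest enzyme of the mitochondrial respiratory chain and its main entry point for electrons. It takes electrons from NADH at a flavin in its matrix arm, passes them along iron-sulfur clusters to ubiquinone, and uses the energy to pump protons through its membrane arm. The core subunits hold the cofactors and the proton channels. Those of the membrane arm are encoded by mitochondrial DNA (the mt-Nd genes) and those of the matrix arm by nuclear Nduf genes. Accessory subunits surround the core and stabilise it, and assembly factors help build the enzyme without staying in it. Skeletal muscle generally holds more mitochondria than white fat.

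Total counts ran from 15203806 to 21747345 for muscle libraries and 13242243 to 19114782 for fat libraries, and all 46 genes passed the filter on low counts in each comparison. Levels below are CPM (counts scaled by the library size) after TMM scaling over all 16 libraries. The targeted gene, Myd88, had muscle levels of 3.32, 3.13, 5.21 and 4.47 CPM among the controls (mice 131, 137, 138 and 11) and of 3.30, 3.04, 2.51 and 2.92 CPM among the knockouts (mice 139, 958, 960 and 29). Its log2 fold change in muscle was -0.47 (SE 0.20; unadjusted p = 0.032, adjusted p = 0.949 in edgeR; exact permutation p = 0.0571, two-sided). Knockout mouse 139 lay among the controls and the other knockouts lay below every control. The groups thus overlapped, and the count table does not fully separate the genotypes at this gene. The sources used here do not say which part of the gene was deleted, and reads from outside it or from other cells of the muscle would be counted. The 8 muscle fibre markers summed to between 168700 and 218500 CPM in muscle and between 344 and 3860 CPM in fat. Among the myosin heavy chain genes listed, Myh4 led in muscle at 71470 to 107800 CPM. Myh1 had 9485 to 13950 CPM, Myh2 3491 to 9221 CPM, and Myh7, a slow fibre marker, 1408 to 3176 CPM. The 7 adipocyte markers summed to between 367 and 553 CPM in muscle and, in 7 of the 8 fat libraries, to between 13650 and 16630 CPM. In fat, the library of control mouse 138 differed most from the rest in its adipocyte markers. Its adipocyte markers summed to 2927 CPM, its 5 smooth muscle markers to 10880 CPM against 273 to 650 CPM in the other fat libraries, and its 5 urothelium markers to 1074 CPM against 7.54 to 20.5 CPM. The genotype results in fat are given with and without this mouse. Other fat libraries also differed in single lists: the summed level of the 5 brown adipocyte markers was 98.9 CPM for mouse 138 and 46.4 CPM for knockout mouse 29, with the remaining libraries between 7.50 and 18.4 CPM, and the muscle fibre markers were highest in knockout mouse 139.

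Per kilobase of transcript, subunit genes were far more abundant than assembly factors in both tissues. The 36 subunit genes had a median of 129 CPM per kb in muscle, ranging from 30.6 for Ndufab1 to 467 for Ndufb9. In fat their median was 41.7 CPM per kb, from 13.2 to 135. The 8 assembly factors had a median of 12.5 CPM per kb in muscle (6.55 to 31.8) and 4.95 CPM per kb in fat (3.08 to 11.2). In fat all 8 lay below every subunit, and in muscle 6 of the 8 did, the exceptions being Ndufaf5 and Ndufaf1, which lay just above Ndufab1. These levels use the length of the principal transcript. With the length of all annotated exons, which is inflated for genes with rare long transcripts, 3 assembly factors in muscle and 4 in fat lay below every subunit, and the medians were 81.7 against 11.6 in muscle.

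The order of the genes was much alike in the tissues. Ndufb9 (467 ± 49.0 CPM per kb; SD over 8 mice, here and for the next values), Ndufa4 (431 ± 42.7), Ndufb8 (395 ± 43.3) and Ndufb10 (252 ± 25.5) were among the 5 highest in muscle, and all 4 were also among the 5 highest in fat. Ndufb8, Ndufb9 and Ndufb10 are accessory subunits of the far end of the membrane arm. Each SD is that of 1 gene over mice. The genes share the libraries, so these SDs do not measure the spread of a difference between genes, which was not tested. In fat the order of means began with Ndufa4 (153 ± 25.6 CPM per kb) and Ndufb9 (135 ± 27.0), with Ndufb8 (119 ± 21.2) and Ndufb10 (76.3 ± 12.4) lower. At the other end in muscle were Ndufa4l2 (3.98 ± 0.75 CPM per kb), Ndufaf3 (6.55 ± 0.82), Ndufaf7 (8.37 ± 0.95), Ndufaf8 (9.34 ± 0.74) and Ndufaf2 (9.44 ± 1.09). The lowest in fat were Ndufa4l2 (2.86 ± 0.70 CPM per kb), Ndufaf6 (3.08 ± 0.57), Ndufaf4 (3.78 ± 0.29), Ndufaf5 (4.66 ± 0.67) and Ndufaf8 (4.75 ± 0.44). Over the 46 genes the levels per kb in muscle and fat had a Spearman rho of 0.884, a description across genes that share libraries and annotated lengths.

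**Figure D1:**
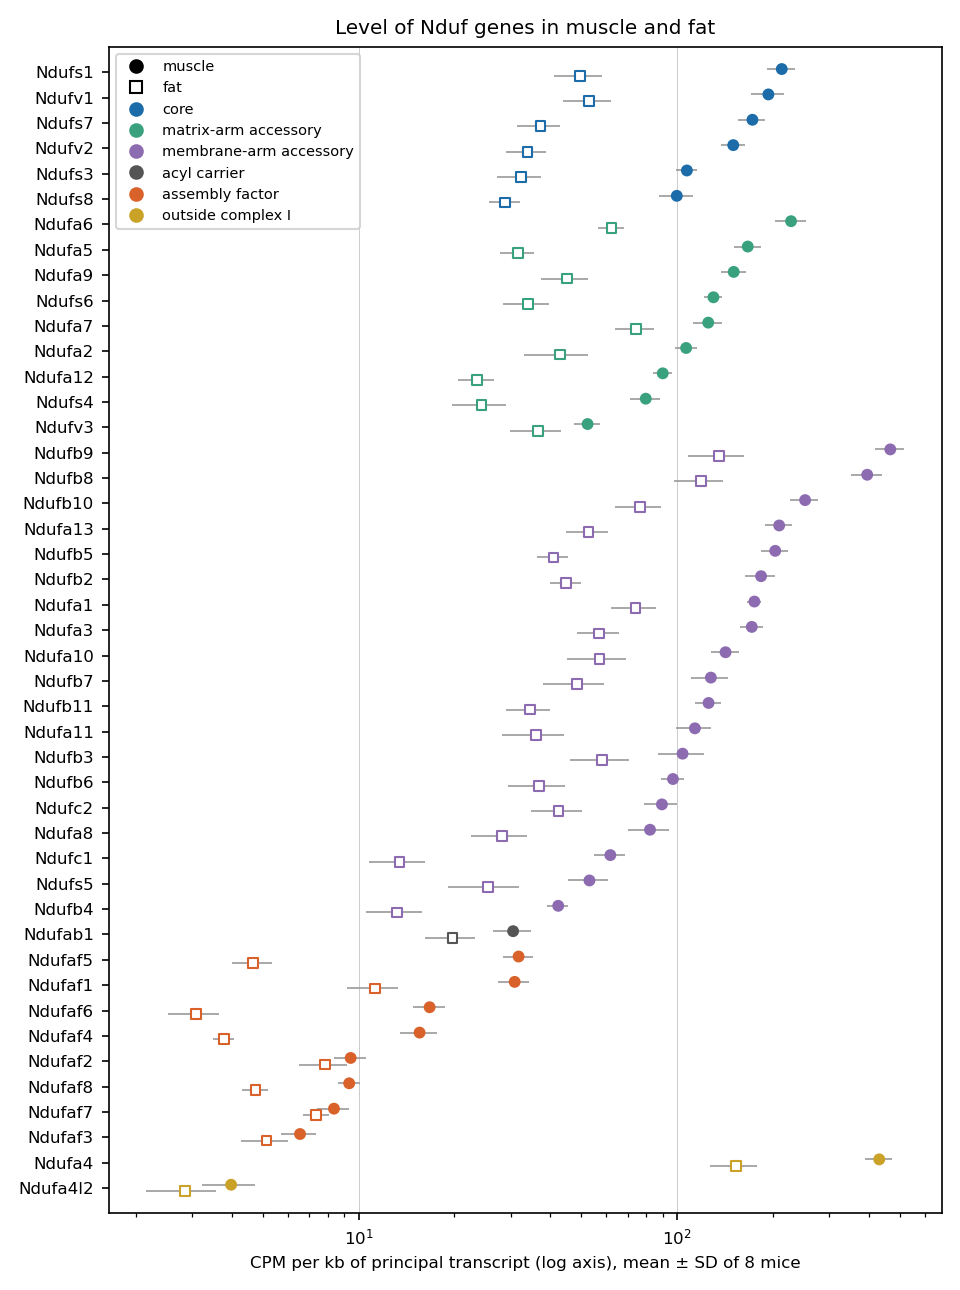
Level of 45 of the 46 Nduf genes in CPM per kb of principal transcript (log axis), grouped by role, with filled circles for muscle and open squares for fat. Points are means and lines are SDs of 8 mice; the assembly factors (6.55 to 31.8 in muscle) lie at the low end and Ndufb9, Ndufa4 and Ndufb8 at the high end.

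Muscle held more RNA of this family than fat. All 46 genes had a higher estimate in muscle, and 45 passed the edgeR test (Benjamini-Hochberg adjusted p under 0.05 over the 17084 genes tested), where 79.6% of all genes were called in either direction and 35.7% were called higher in muscle. The median log2 difference, muscle over fat, was 1.72, which is 3.29-fold and puts fat at 30.4% of muscle, while the median over all genes was -0.16. Without mouse 138 the Nduf median was 1.62. For 42 of the 46 genes every muscle library lay above every fat library, against 25.2% of all genes. Within mice, 43 genes were higher in muscle in 8 of 8 animals, each with an exact sign permutation p of 0.00781, two-sided, the smallest that 8 mice can give. In bulk tissue, fewer cells of a type and less RNA per cell cannot be told apart, and the scaling enters too. With total counts alone the all-gene median was -1.36, the Nduf median 0.53 and 35 of the 46 genes were higher. The distance between the medians was 1.89 there and 1.88 with TMM scaling. A change of scaling shifts all genes of a library alike, so this distance can hardly move and is no test of the scaling. Many Nduf transcripts are short, and the other protein-coding genes with a principal transcript under 1000 bases had a median of 0.13, with 443 of 825 higher in muscle.

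The 7 core subunits formed the most even group, with log2 differences between 1.73 and 2.22. Ndufs1 (ENSMUSG00000025968, chr1:63143596-63176833), which carries several of the iron-sulfur clusters, ranged from 477 to 649 CPM in muscle (median 546) and from 75.9 to 148 CPM in fat (median 134), and its log2 difference was 2.10 (SE 0.12; edgeR adjusted p = 2.62e-10). For this gene the lowest muscle library held over 3 times the CPM of the highest fat library. Ndufs7 (ENSMUSG00000020153, chr10:80249121-80256794), which holds the last cluster before ubiquinone, ranged from 117 to 150 CPM in muscle (median 129) and from 19.8 to 34.3 CPM in fat (median 28.1), with the largest difference of the core, 2.22 (SE 0.09). Ndufv1, the NADH- and flavin-binding subunit, ranged from 284 to 401 CPM in muscle (median 312) and from 57.1 to 103 CPM in fat (median 90.1), a difference of 1.87 (SE 0.12). Its neighbour Ndufv2, with another cluster, had a log2 difference of 2.15 (SE 0.10), with 255 ± 22 CPM in the muscle libraries against 57.5 ± 8.34 CPM in the fat libraries (SD, n = 8 per tissue). The smallest core differences were those of Ndufs8, a cluster-bearing subunit, at 1.79 (SE 0.09), and Ndufs3, a subunit next to the quinone site, at 1.73 (SE 0.10). All 7 core genes were called and none had overlapping libraries. In fat the lowest value of each was that of control mouse 138, and without this mouse all 7 were still called.

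Accessory subunits were all called higher in muscle but were spread more widely. The 9 of the matrix arm had a median of 1.74 and ran from 0.52 to 2.39, and the 19 of the membrane arm a median of 1.66, from 0.84 to 2.31. Ndufa5 (ENSMUSG00000023089, chr6:24518666-24528013), a small subunit of the quinone module, had the largest difference among subunits: it ranged from 126 to 166 CPM in muscle (median 142) and from 22.6 to 34.3 CPM in fat (median 27.8), a log2 difference of 2.39 (SE 0.08; edgeR adjusted p = 1.01e-12). Ndufb5 in the membrane arm ranged from 201 to 267 CPM in muscle (median 212) and from 33.8 to 50.2 CPM in fat (median 45.0), a difference of 2.31 (SE 0.09). Of the 51-base stretches of the Ndufb5 exons, 11.1% also lie in the neighbouring gene Mrpl47 on the other strand. Other named genes share stretches too, among them Ndufb9 (15.5%, with Gm49356 on the same strand) and Ndufs3 (17.5%, mostly with the processed pseudogene Gm12251). At the other end of the matrix arm, Ndufv3, which sits beside the NADH-binding subunits, ranged from 72.1 to 92.0 CPM in muscle (median 82.2) and from 32.0 to 64.2 CPM in fat (median 61.6). Its libraries did not overlap, but its log2 difference was only 0.52 (SE 0.12; edgeR adjusted p = 0.00076), and in 7 of the 8 fat libraries it stood between 57.9 and 64.2 CPM. Other accessory genes with differences under 1 were Ndufa7 at 0.75 (SE 0.09) and Ndufb3 at 0.84 (SE 0.14), both negative with total counts alone. Ndufv3 (95% interval 0.27 to 0.77) and Ndufa5 (2.21 to 2.58) are the lowest and highest of the 9 matrix-arm genes. They were picked as these ends, and the difference between them was not tested. Ndufab1, the mitochondrial acyl carrier protein, which also serves fatty acid synthesis and iron-sulfur cluster assembly, had a difference of 0.63 (SE 0.12), also negative with total counts alone, with means of 43.3 ± 5.93 CPM (muscle) and 27.9 ± 5.04 CPM (fat; SD, n = 8 per tissue).

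Assembly factors covered the whole range of the family. Their 8 log2 differences ran from 0.18 to 2.77, with a median of 1.2 and an SD over genes of 1.03, where the 36 subunits had an SD of 0.47. Ndufaf5 (ENSMUSG00000027384, chr2:140170649-140203689), which hydroxylates the core subunit Ndufs7, had the largest difference of all 46 genes: it ranged from 30.7 to 42.2 CPM in muscle (median 37.3) and from 4.37 to 6.59 CPM in fat (median 5.28), a log2 difference of 2.77 (SE 0.10; edgeR adjusted p = 1.38e-12). Ndufaf6, needed for an early step of the membrane arm, ranged from 15.3 to 21.7 CPM in muscle (median 18.1) and from 2.60 to 4.51 CPM in fat (median 3.20), a difference of 2.44 (SE 0.11). Ndufaf4 (ENSMUSG00000028261, chr4:24898083-24905001) had a difference of 2.04 (SE 0.08), with means of 56.5 ± 7.36 CPM (muscle) and 13.7 ± 1.06 CPM (fat; SD, n = 8 per tissue). Ndufaf3, its binding partner in assembly of the quinone module, had only 0.35 (SE 0.11; edgeR adjusted p = 0.011), with 7.82 to 12.1 CPM in muscle and 5.37 to 9.20 CPM in fat, so its libraries overlapped although each mouse had more in muscle. The 95% intervals of this pair were 1.87 to 2.21 and 0.11 to 0.59. The difference between the genes was not tested, and Ndufaf3 was named for its small difference between tissues.

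The same contrast held for the modifying enzymes. Ndufaf7 (ENSMUSG00000024082, chr17:78937136-78948052), which methylates a subunit of the core, was the only gene of the 46 not called, with 12.2 to 17.4 CPM in muscle (median 14.1) and 10.4 to 14.7 CPM in fat (median 13), a log2 difference of 0.18 (95% interval 0.0060 to 0.36; edgeR adjusted p = 0.0545), and 7 of 8 mice were higher in muscle. Leaving out control mouse 131, the only mouse with less in muscle, gave 0.32 (adjusted p = 0.00245), and DESeq2 called it too (0.20, adjusted p = 0.037). Ndufaf2, a factor of late assembly, had 5.59 to 7.91 CPM in muscle and 3.74 to 6.94 CPM in fat, a difference of 0.27 (edgeR adjusted p = 0.0489), and 6 of 8 mice were higher in muscle. Its call was not firm: with the mouse as a block the adjusted p was 0.0528, and without any 1 of mice 138, 11, 139, 958, 960 and 29 it ran from 0.0601 to 0.164. With the trend over transcript length removed the difference was 0.085 (adjusted p = 0.497), with upper quartile factors 0.17 (adjusted p = 0.177). A further limit is that 64.0% of its 51-base stretches are shared with the antisense RNA gene B230220B15Rik, and the sources used here do not give the strand setting of the counting. The remaining factors lay between: Ndufaf1 at 1.46 (SE 0.12) and Ndufaf8, the partner of Ndufaf5, at 0.98 (SE 0.08), the latter negative with total counts alone.

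The pair of genes outside complex I also differed from one another. Ndufa4, now counted as a subunit of cytochrome c oxidase (complex IV), ranged from 237 to 316 CPM in muscle (median 263) and from 59.9 to 113 CPM in fat (median 96.3), a log2 difference of 1.5 (SE 0.11; edgeR adjusted p = 5.2e-09). Ndufa4l2, its hypoxia-induced paralog, ranged from 2.79 to 4.83 CPM in muscle (median 3.72) and from 1.79 to 3.54 CPM in fat (median 2.61), a difference of 0.48 (SE 0.16; edgeR adjusted p = 0.0132), with overlapping libraries and 6 of 8 mice higher in muscle. Without the filter on low counts its adjusted p was 0.0587. With total counts alone 11 of the 46 genes had a negative difference, 9 of them called. They were Ndufa4l2 (-0.70), Ndufv3 (-0.67), Ndufaf3 (-0.84), Ndufaf2 (-0.92) and Ndufaf7 (-1.01), and also Ndufa7, Ndufab1, Ndufaf8, Ndufb3, Ndufc2 and Ndufs5. The 5 values given lie above the all-gene median of -1.36 under that scaling.

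**Figure D2:**
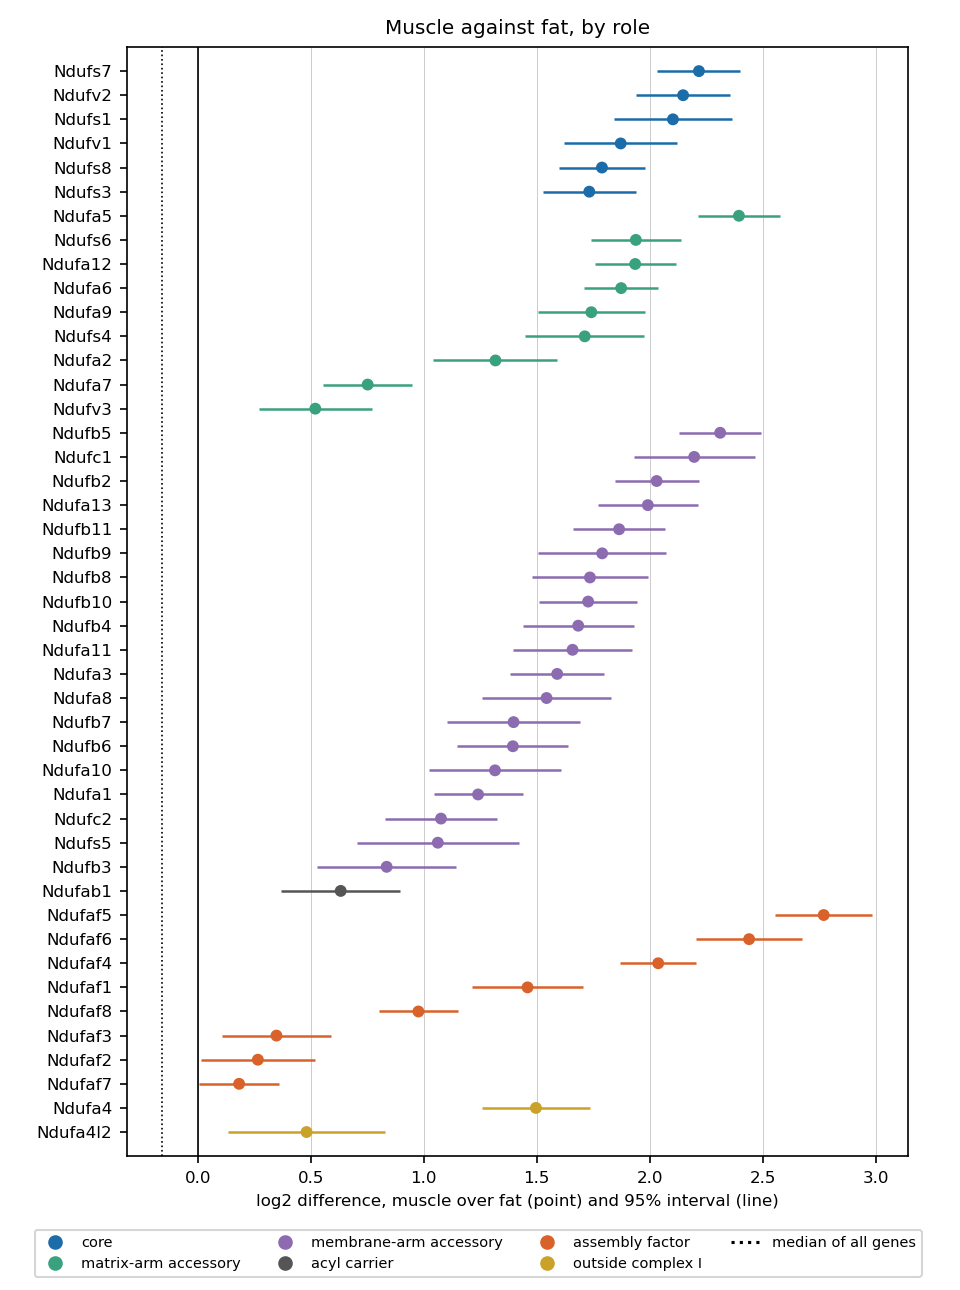
Log2 difference of 45 of the 46 Nduf genes, muscle over fat, with its 95% interval from edgeR, grouped by role; the solid line marks 0 and the dotted line the median of all genes (-0.16). The core subunits lie between 1.73 and 2.22, while the assembly factors run from 0.18 (Ndufaf7) to 2.77 (Ndufaf5).

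Other genes of the respiratory chain gave a scale for these differences. Of 41 nuclear genes of complexes II to V that were tested, 39 were called higher in muscle and 2 lower, with a median of 1.66. The 2 lower ones were Cox6a1 (-3.00) and Cox8a (-2.93), isoforms whose muscle counterparts Cox6a2 (7.35) and Cox8b (4.81) were higher. No Nduf gene had a difference of that size in either direction. Of the mt-Nd genes, 6 of 7 were tested and all 6 were called higher in muscle, with a median of 1.19, from 0.70 for mt-Nd5 to 1.94 for mt-Nd1. Of 9 assembly factors with other names, 6 were called higher, 2 lower and 1 was not called. Ecsit, which binds Ndufaf1 in the assembly intermediate of the membrane arm and is also named for a role in Toll signalling, averaged 83.2 ± 6.0 CPM (muscle) and 18.1 ± 2.02 CPM (fat; SD, n = 8 per tissue), a difference of 2.20. Acad9, a dehydrogenase in the same intermediate, had -0.10 (edgeR adjusted p = 0.49), and Foxred1 and Nubpl, an iron-sulfur carrier, were called lower in muscle (-0.43 and -0.25). All 12 genes of mitochondrial content and biogenesis were called higher in muscle (median 1.19), with the voltage-dependent channel gene Vdac1 at 3.32, the coactivator Ppargc1a at 3.88 and the mitochondrial transcription factor Tfam at 1.78.

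The promoters of these genes can be read beside their shared difference between tissues. The RefSeq promoter table for GRCm38.p6 holds 40 of the 46 genes, with 250 bases before and 50 after each start, and lacks, among others, Ndufa2, Ndufa4l2, Ndufaf6, Ndufb9 and Ndufs1. It was searched on both strands for AAGATGGC (bound by YY1), GCATGCGC (part of the site of the respiratory factor NRF1), CCGGAAGT (ETS factors such as GABPA) and AAGGTCA (bound by the ERR receptors). None of these motifs contains another, and no Nduf promoter held 2 different ones. AAGATGGC stood in 8 of the 40 genes (20%) against 3.19% of the 27025 genes of the table, and GCATGCGC in 5 (12.5%) against 3.05%. CCGGAAGT stood in 1 gene, Ndufs3 (2.5% against 4.31%), and AAGGTCA in Ndufb2, Ndufb4 and Ndufs5 (7.5% against 5.38%). The 27025 genes were not limited by gene class or by expression in these tissues. The 40 Nduf genes are all protein-coding and passed the filter on low counts, so the backgrounds are unlike. In 23 of the 40 genes none of the 4 was found, which says only that these letters are not in this window.

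All 8 copies of AAGATGGC read in the direction of transcription and began 11 to 39 bases after the start. They are shown because of this shared place, as 30 bases of the coding strand from 5′ to 3′ with the motif in capitals.
Ndufa3 (chr7:3617384-3617413, plus strand): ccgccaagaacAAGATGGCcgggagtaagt
Ndufa9 (chr6:126849097-126849126, minus strand): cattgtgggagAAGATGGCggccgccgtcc
Ndufaf8 (chr11:120098933-120098962, plus strand): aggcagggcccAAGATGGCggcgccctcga
Ndufb8 (chr19:44555393-44555422, minus strand): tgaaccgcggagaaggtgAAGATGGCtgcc
Ndufc1 (chr3:51408915-51408944, minus strand): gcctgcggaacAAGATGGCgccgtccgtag
Ndufs4 (chr13:114388045-114388074, minus strand): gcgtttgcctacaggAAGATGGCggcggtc
Ndufs6 (chr13:73328433-73328462, minus strand): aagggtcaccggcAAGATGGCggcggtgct
Ndufs7 (chr10:80249462-80249491, plus strand): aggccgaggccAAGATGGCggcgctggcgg
The motif holds an ATG, and whether that is the start codon of these genes was not examined. The 8 genes had a median log2 difference between tissues of 1.74, and 1.6 was the median of the other 32 genes searched.

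The 5 genes with GCATGCGC include Ndufaf5, the gene with the largest difference between tissues. In Ndufa11, Ndufaf4 and Ndufaf5 the motif overlaps its own reverse complement, so that 10 bases are in capitals.
Ndufa6 (chr15:82354356-82354385, minus strand): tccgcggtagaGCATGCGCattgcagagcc
Ndufa8 (chr2:36049328-36049357, minus strand): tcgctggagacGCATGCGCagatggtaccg
Ndufa11 (chr17:56717691-56717720, plus strand): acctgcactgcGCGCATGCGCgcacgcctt
Ndufaf4 (chr4:24897959-24897988, plus strand): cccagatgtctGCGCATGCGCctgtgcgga
Ndufaf5 (chr2:140170651-140170680, plus strand): tagtcccgttgGCGCATGCGCctaatagaa
Their median log2 difference between tissues was 1.87, against 1.68 in the table's other Nduf genes. For AAGGTCA the order was the other way, with 1.68 in genes that hold it and 1.71 in the others. Ndufs3, with CCGGAAGT, had 1.73 against 1.68. None of these differences between medians was tested. A match is a description of letters and says nothing of binding in these tissues.

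In muscle, the tissue targeted by the knockout, none of the family was called between genotypes. Of the 46 genes, 0 passed in edgeR, where 0.0141% of the 14183 genes tested were called, and 0 had an unadjusted p under 0.05 (715 of all genes did). DESeq2 also called 0 of the 46. Knockouts had the higher estimate for 36 of the 46 genes, but the differences were small: log2 fold changes, knockout over control, ran from -0.19 to 0.21 with a median of 0.044, against 0.0028 over all genes. The 95% intervals of all genes except Ndufa4l2 lay within -0.40 and 0.42. The lowest exact permutation p of a gene was 0.171, where 4 mice against 4 can reach 0.0286, and no gene had groups that did not overlap (3.12% of all genes did). The summed CPM of the family was 5703, 5567, 6149 and 6148 in the controls (mice 131, 137, 138 and 11) and 6985, 5719, 6455 and 5444 in the knockouts (mice 139, 958, 960 and 29), so the knockouts held the highest and the lowest library.

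The core subunits were higher in knockouts for 7 of 7 genes (median 0.048), none called. Without control mouse 131 or knockout mouse 139 it was 4 of 7 each (medians 0.016 and 0.0079), without knockout mouse 960 5 of 7, and without mice 131 and 139 together 1 of 7 (median -0.017). The core median was 0.017 without control mouse 137, and 0.088, 0.11 and 0.099 without mice 138, 11 and 29. Estimates with all mice were 0.10 (Ndufs8), 0.089 (Ndufv1), 0.048 (Ndufs3), 0.040 (Ndufs7), 0.031 (Ndufs1) and 0.017 (Ndufv2), each with an SE of 0.08 to 0.10. Accessory subunits were higher in knockouts for 7 of 9 in the matrix arm and 15 of 19 in the membrane arm, with medians of 0.048 and 0.054. Among them Ndufb7 was at 73.3, 62.6, 76.7 and 87.6 CPM in controls 131, 137, 138 and 11 and 93.8, 78.4, 90.6 and 72.7 CPM in knockouts 139, 958, 960 and 29, a log2 fold change of 0.15 (SE 0.10; exact permutation p = 0.229). Ndufc1 was at 59.6, 68.6, 82.3 and 82.0 CPM in controls and 80.5, 79.8, 83.1 and 80.6 CPM in knockouts, 0.14 (SE 0.10; exact permutation p = 0.371). Its knockouts lay close together at the level of the 2 higher controls. Ndufc2, a membrane-arm subunit next to Ndufc1, had 0.14 (SE 0.10), and Ndufs6, which carries zinc in the matrix arm, had -0.087 (SE 0.08).

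Assembly factors split evenly in muscle, with 4 of 8 higher in knockouts and a median of 0.0079. Ndufaf4 had the smallest p of the family: 63.9, 55.8, 62.5 and 57.4 CPM in controls and 65.9, 52.3, 46.6 and 47.3 CPM in knockouts, a log2 fold change of -0.19 (SE 0.10; unadjusted p = 0.084, adjusted p = 0.949 in edgeR; exact permutation p = 0.171). Here 3 of 4 knockouts lay below all controls, while knockout mouse 139 was the highest of all 8. Ndufa4l2 had the widest interval, 0.21 (95% interval -0.21 to 0.63).

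**Figure D3:**
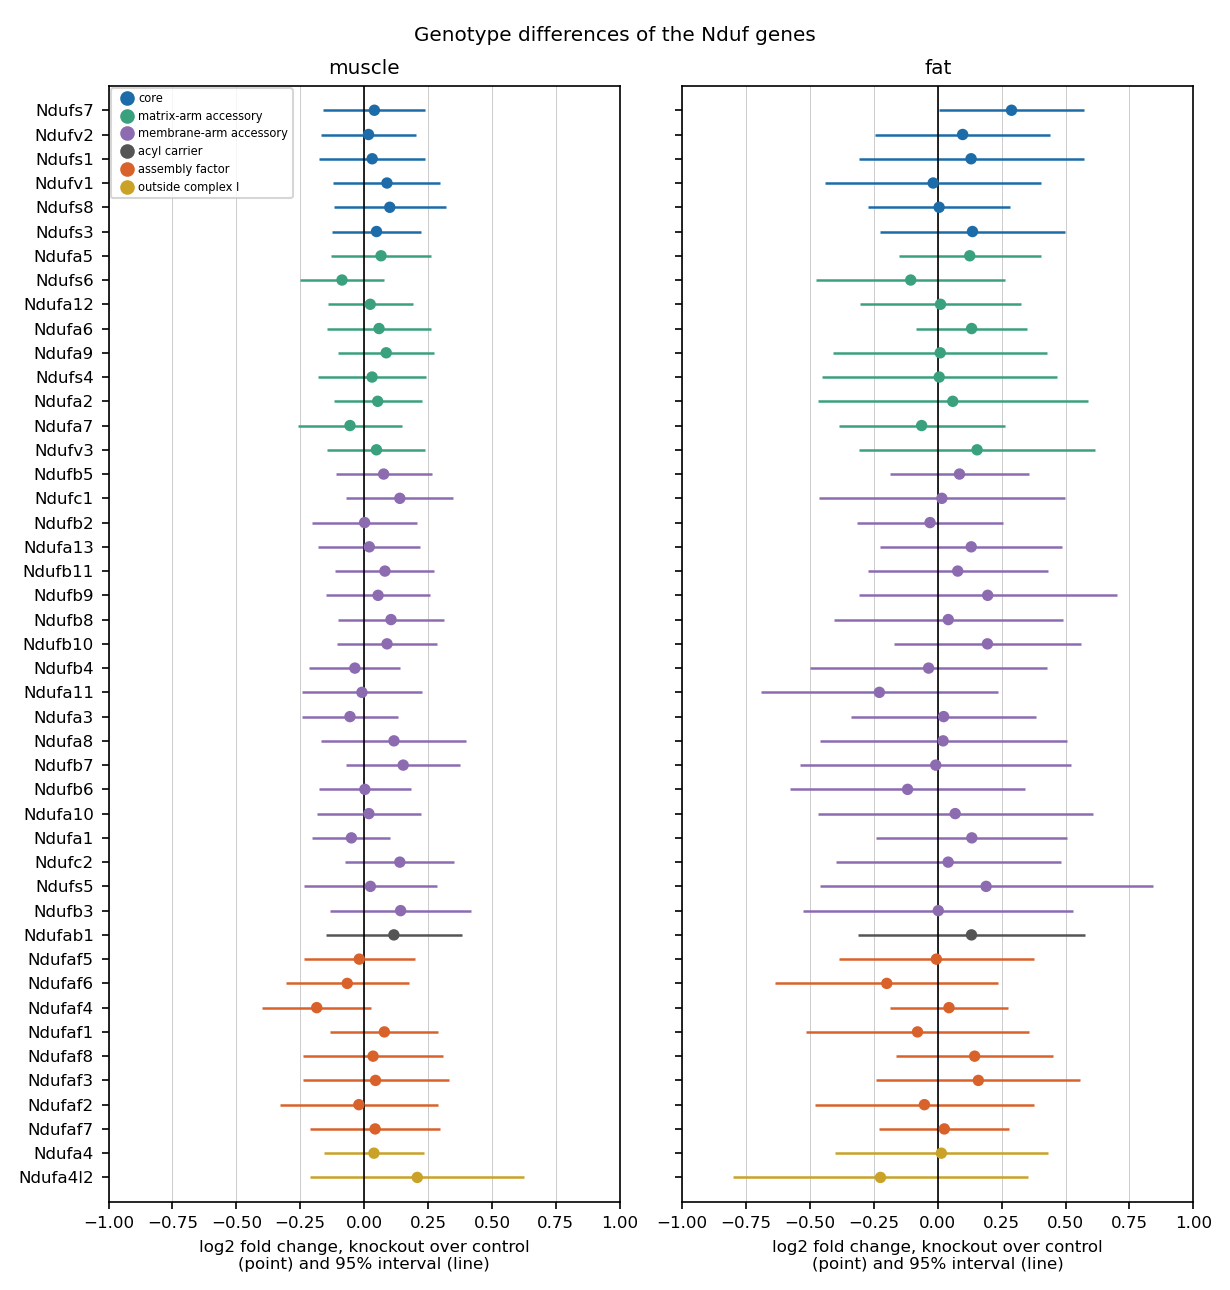
Log2 fold change of 45 of the 46 Nduf genes, knockout over control, in muscle (left) and fat (right), with 95% intervals from edgeR and colours by role. All muscle intervals include 0, and in fat the interval of Ndufs7 (0.29) alone does not.

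Leaving out 1 mouse at a time showed what the small excess in knockout muscle rested on. The median log2 fold change of the 46 genes ran from -0.0027 without knockout mouse 139 to 0.093 without knockout mouse 29, and the number higher in knockouts from 21 without mouse 139 to 39 without control mouse 11. Without control mouse 131 or 137, or knockout mouse 960, 28, 31 and 33 genes were higher, and without mice 131 and 139 together 12 were higher, with a median of -0.027, while without mice 131 and 11 together 36 were higher, with a median of 0.055. No gene was called in any of these fits, and the lowest adjusted p was 0.612 (Ndufaf4 without mouse 139). For 21 of the 46 genes the sign was the same in all 8 omissions, 16 of them higher and 5 lower in knockouts. Ndufb7 kept to values between 0.076 and 0.24, and Ndufaf4 between -0.29 and -0.13, while Ndufs1 (-0.037 to 0.099) and Ndufs7 (-0.028 to 0.11) crossed 0. The nuclear genes of complexes II to V followed the same course: 39 of 41 were higher in knockouts with a median of 0.071, and 20 of 41 with a median of -0.0021 without mouse 139.

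**Figure D4:**
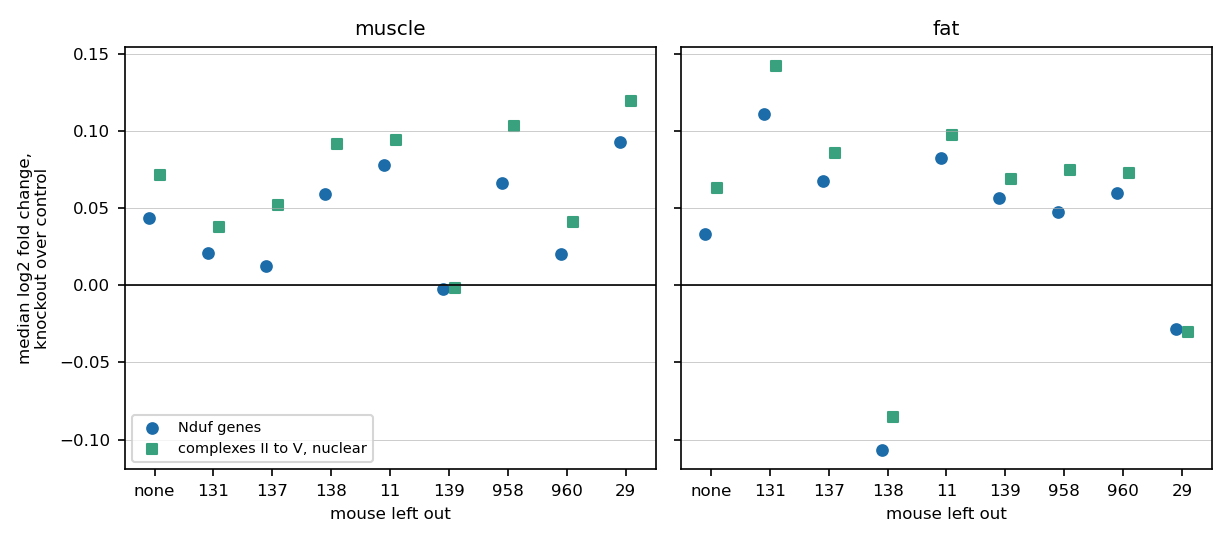
Median log2 fold change, knockout over control, of the 46 Nduf genes (circles) and 41 nuclear genes of complexes II to V (squares), with no mouse left out and with each mouse left out in turn, in muscle (left) and fat (right). The Nduf median falls to -0.0027 in muscle without mouse 139 and to -0.11 in fat without mouse 138.

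The genes moved together from mouse to mouse. In muscle the median Nduf gene lay 0.21 (log2) above its mean over the 8 libraries in knockout mouse 139, with 42 of 46 genes above, and 0.14 below it in knockout mouse 29, with 7 of 46 above. Knockout mouse 960 stood at 0.088, and knockout mouse 958 at -0.075, while the controls lay between -0.090 (mouse 137) and 0.047 (mouse 11). Complexes II to V gave 0.26 in mouse 139 and -0.15 in mouse 29. The mt-Nd genes did not follow: their median was -0.45 in mouse 139 and 0.49 in control mouse 137, whose Nduf median was below the mean. Across genes, pairs of Nduf genes had a median Pearson r of 0.593 over the 8 muscle libraries, a description, since all pairs share the libraries and their scaling. Slow fibre markers also differed between these libraries. Their sum was 7331, 6815 and 7090 CPM in knockouts 139, 958 and 960, 3184 CPM in knockout 29, and 3742 to 4398 CPM in the controls, and all 8 markers had a higher estimate in knockouts (median 0.57, 0 called). Mouse 29 was lowest and mouse 139 highest in both measures, but mouse 958 was high in slow fibre markers and low in Nduf genes. Macrophage markers (8 of 8, median 0.43), mast cell markers (5 of 5, median 0.90) and fibroblast markers (6 of 6, median 0.26) also had higher estimates in knockout muscle, 0 of them called. The part of fibre type or of these cells in the Nduf values was not tested.

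**Figure D5:**
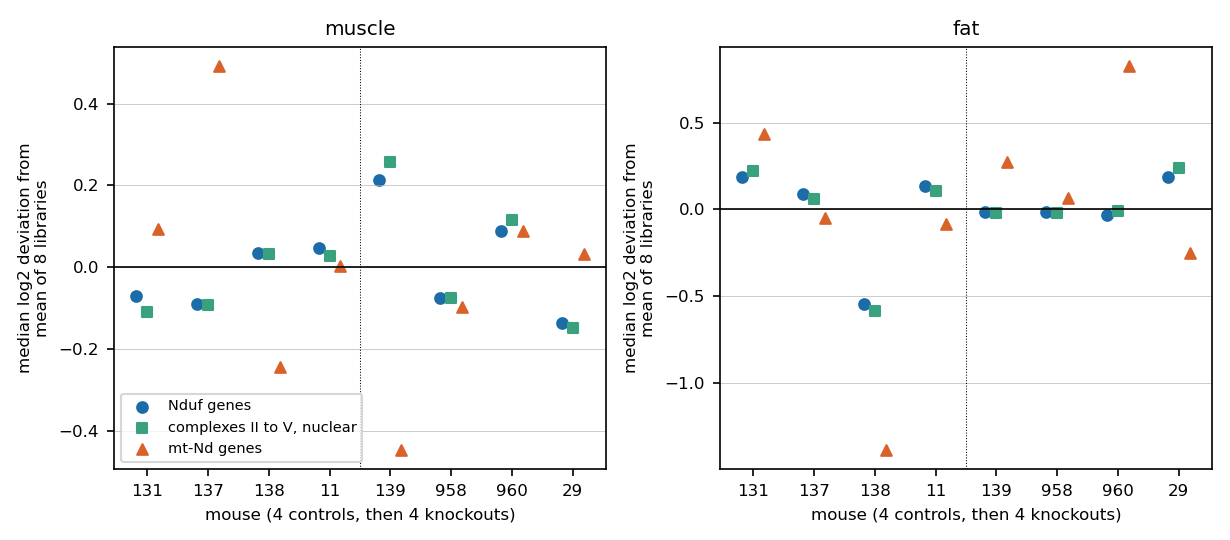
Median log2 deviation of 3 gene lists from their mean over the 8 libraries of a tissue, by mouse, in muscle (left) and fat (right, on a wider axis). Nduf genes and nuclear genes of complexes II to V lie close together in each library, including mouse 139 in muscle (0.21 and 0.26) and mouse 138 in fat (-0.55 and -0.58), and the mt-Nd genes do not.

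In the other mitochondrial lists of muscle, 0 genes were called. The 6 mt-Nd genes tested had a median of -0.20, with 5 of 6 lower in knockouts. Of the mt-Nd genes, mt-Nd3 had -0.43 (SE 0.17) and mt-Nd5 -0.34 (SE 0.16), with unadjusted edgeR p of 0.025 and 0.0498 and adjusted p of 0.949 each. The level of mt-Nd3 was low, at 5.13 to 9.14 CPM in muscle, where mt-Nd5 had 799 to 1395 CPM. Without control mouse 137 the mt-Nd median was -0.026, with 3 of 6 lower and 0 with an unadjusted edgeR p under 0.05. Without knockout mouse 139 it was -0.085, with 4 of 6 lower. Without any 1 of mice 131, 138, 11, 958, 960 and 29 it lay between -0.30 and -0.19, with 5 of 6 lower. The unadjusted edgeR p of mt-Nd3 stayed under 0.05 without mouse 138, 11, 139, 960 or 29, but not without mouse 131, 137 or 958. The 9 other assembly factors had a median of 0.0071, and Ecsit had 0.046 (SE 0.08). Of 12 genes of mitochondrial content and biogenesis 8 were lower in knockouts, and Ppargc1a, which drives transcription of respiratory genes, had the smallest p among them: 92.9, 128, 106 and 108 CPM in controls and 81.8, 70.7, 70.7 and 70.7 CPM in knockouts, a log2 fold change of -0.58 (SE 0.10; edgeR adjusted p = 0.128). Its groups did not overlap, whereas those of all 46 Nduf genes did.

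In fat, which the muscle knockout does not target, 0 of the 46 genes were called between genotypes, where 0.00613% of the 16323 genes tested were called, and DESeq2 also called 0. An unadjusted p under 0.05 was reached by 1 Nduf gene and by 1305 of all genes. Estimates were higher in knockouts for 33 of 46 genes, with a median of 0.033 (all genes -0.011), and ran from -0.23 to 0.29. No gene had groups that did not overlap (6.32% of all genes did), and the lowest exact permutation p was 0.0571. Intervals were wider than in muscle, with a median SE of 0.18 against 0.096. Over all 46 genes they ran from -0.80 to 0.84 in fat and from -0.40 to 0.63 in muscle. Without Ndufa4l2 they ran from -0.69 to 0.84 in fat and from -0.40 to 0.42 in muscle. The core subunit Ndufs7 had the smallest p: 27.2, 26.4, 19.8 and 28.3 CPM in controls 131, 137, 138 and 11 and 30.2, 27.8, 31.8 and 34.3 CPM in knockouts 139, 958, 960 and 29, a log2 fold change of 0.29 (SE 0.12; unadjusted p = 0.047, adjusted p = 0.620 in edgeR; exact permutation p = 0.0571). It was higher in knockouts in every omission, from 0.19 without mouse 138 to 0.33. Next came Ndufa6 (0.13), Ndufb10 (0.19), Ndufa11 (-0.23), Ndufaf8 (0.14) and Ndufaf6 (-0.20), with edgeR adjusted p of 0.694 to 0.761. Without mouse 138 these were 0.077, 0.062, -0.35, 0.13 and -0.32 in the same order. Without knockout mouse 29 Ndufa6 was at 0.086, Ndufb10 at 0.12, Ndufa11 at -0.42 and Ndufaf8 at 0.080, and Ndufaf6 was at -0.077 without control mouse 11. Ndufa11 was at 24.8, 21.3, 15.4 and 23.5 CPM in controls and at 16.7, 15.5, 15.5 and 24.8 CPM in knockouts, where mouse 29 alone was at the level of the higher controls.

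The direction in this tissue depended on single libraries, most of all on that of control mouse 138. Its Nduf genes summed to 1172 CPM against 1775 to 2057 CPM in the other fat libraries, the median gene lay 0.55 (log2) below its mean, and 1 of 46 genes lay above. Without this mouse 7 of 46 genes were higher in knockouts, with a median of -0.11, 4 genes had an unadjusted p under 0.05 (Ndufaf1, Ndufb3 and Ndufb6 lower, Ndufs7 higher) and 0 were called, the lowest adjusted p being 0.183. Complexes II to V turned in the same way, from 29 to 7 of 41 higher. The library's adipocyte, smooth muscle and urothelium markers are given above, and their part in its Nduf values was not tested. Without knockout mouse 29, whose median lay 0.19 above the mean, 19 of 46 genes were higher. The brown adipocyte marker Ucp1 was at 19.3 CPM in this library, at 50.9 CPM in that of mouse 138, and at 0.094 to 2.90 CPM in the others. Its part in these Nduf values was not tested. The median Pearson r between Nduf genes in fat was 0.823 over 8 libraries and 0.497 over the 7 without mouse 138.

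The difference between the genotype effects, muscle minus fat, was called for 0 of the 46 genes, where 0.0% of the 17084 genes tested were called (1229 of all genes and 0 Nduf genes had an unadjusted p under 0.05). DESeq2 called 0 of the 46 and 11 of all genes. The median was 0.012, against 0.032 over all genes. The smallest p belonged to Ndufs7 (-0.24, SE 0.17), Ndufaf4 (-0.22, SE 0.15) and Ndufa4l2 (0.44, SE 0.33), with edgeR adjusted p of 0.761 to 0.787. The direction turned with single mice. Without mouse 138 the median was 0.14 and 41 of 46 genes were positive, 6 with an unadjusted p under 0.05 and 0 called, and without mouse 29 it was 0.11 with 37 positive. Without mouse 131 the median was -0.072 with 34 of 46 negative, without mouse 139 -0.055 with 30 negative, without mouse 137 -0.032, without mouse 11 -0.032 and without mouse 960 -0.028. Without mouse 958 it was 0.029. Leaving out mice 131 and 139 gave -0.13 and leaving out mice 131 and 11 gave -0.16. A p above the threshold does not show equal effects, and the 95% interval of Ndufs7 ran from -0.60 to 0.11.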

How the data were processed

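The deposited values are raw read counts per gene, 1 table for 16 libraries. Per the labels' protocols, the libraries were stranded and depleted of ribosomal RNA. The build GRCm38 and the tools featureCounts 1.6.3, STAR 2.7.0f and DESeq2 1.22.2 are named in the submitters' processing notes, without their roles or order. How the authors set the strand, and how they treated reads matching several genes, is not stated in the sources used here. The counts carry no molecular identifiers.

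Counts were tested with edgeR 4.0.16 in R 4.3.3 (TMM factors, filterByExpr, robust quasi-likelihood fit), within each tissue for genotype, and in 1 fit of 16 libraries for tissue and for the difference of genotype effects. P-values were adjusted by Benjamini-Hochberg over all genes tested, and an adjusted p under 0.05 is a call. Standard errors were derived from the F statistic. Exact permutation tests used log2(CPM + 0.5), with 70 assignments of 4 mice against 4 or 256 sign assignments of 8 mice. Alternatives were other scalings and filters, DESeq2 1.42.0, limma 3.58.1, length and GC corrections, a mouse block and the omission of mice. The script was tested on simulated counts.

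Named are the core subunits, the 6 genes with the smallest p per genotype comparison (3 for the difference of effects), the 5 largest and 5 smallest tissue differences, the 5 highest and lowest levels per kb, and genes of the lists counted, plus neighbours in role chosen after their values were seen. The values of 1 of the 46 genes are not reported here, though it is included in the counts. The genes and lists were chosen with earlier results of these data known.

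Mouse numbers are the same in muscle and fat, and by these labels the libraries were paired by animal. Deviations from the group means in the 2 tissues of a mouse correlated, over 17084 genes, at 0.0399, -0.0004, -0.020 and 0.0141 in control mice 131, 137, 138 and 11, and at 0.109, 0.120, 0.103 and 0.166 in knockout mice 139, 958, 960 and 29. The correlation was highest with the mouse's own fat library for mice 131, 139, 958, 960 and 29, but not for control mice 137, 138 and 11. For those controls the pairing thus rests on the labels alone. Each replicate is a separate mouse per the labels.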

Additional observations from a re-analysis of the deposited data

Results flagged for a closer look

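In groups of 4 libraries, a library was singled out where its gap to the nearest other, divided by the range, passed Dixon's 95% critical value. Chance does this in about 1 of 20 independent groups. Over the 46 genes it happened in 17 of 184 groups, but the genes share the libraries and vary together, so these groups are not independent. Of the 17, 11 came through the fat library of control mouse 138 and 5 through the fat library of knockout mouse 29. The muscle library of control mouse 11 gave 1.

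The median Nduf gene of mouse 138 lay at -0.55 (log2) from its mean over the fat libraries, away from the other controls, and that of mouse 29 at 0.19, away from the other knockouts. Mouse 138 was far below the other controls in the membrane-arm subunits Ndufb7 (16.9 CPM), Ndufb8 (48.7 CPM), Ndufb9 (49.7 CPM) and Ndufc2 (18.3 CPM), in the core subunits Ndufs8 (22.5 CPM) and Ndufv1 (57.1 CPM), and in Ndufv3 (32.0 CPM), as well as in Ndufa9 (40.7 CPM), Ndufaf1 (10.2 CPM), Ndufb3 (23.7 CPM) and Ndufb6 (16.2 CPM). The muscle library of control mouse 11 was far from the other controls in Ndufb6 (70.5 CPM). Mouse 29 was far above the other knockouts in Ndufa11 (24.8 CPM), Ndufb7 (36.9 CPM), Ndufc1 (20.9 CPM), Ndufv2 (68.8 CPM) and Ndufa4l2 (3.28 CPM).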

How the results depend on the processing

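No Nduf gene was called for genotype, or for the difference of genotype effects, under any alternative run. With total counts only, the Nduf median for tissue moved from 1.72 to 0.53, and the differences of Ndufa4l2 (-0.70), Ndufaf2 (-0.92), Ndufaf3 (-0.84), Ndufaf7 (-1.01) and Ndufv3 (-0.67) reversed, as did 6 other Nduf genes named in the report, where the all-gene median was -1.36. Without a filter on low counts Ndufa4l2, Ndufaf2 and Ndufaf3 were no longer called for tissue. Leaving out 1 mouse gave Nduf medians for tissue from 1.62 without mouse 138 to 1.84 without mouse 131, and leaving out mice 131 and 11 gave 1.91. With the mouse as a block, 44 genes were called for tissue in place of 45 (Ndufaf2 was lost), the median was 1.73, and no other Nduf call changed. Counts over all genes moved more. In muscle 2 genes were called, against 80 without a filter, 1 with a minimum of 1 CPM in 4 libraries, 10 with DESeq2, 4 without mice 131 and 139, and 1 to 10 without 1 mouse (1 without mouse 139, 10 without mouse 29). In fat 1 gene was called, against 72 with DESeq2, 0 with limma voom, 9 with its quality weights, 6 in 1 fit of 16 libraries, 8 with the mouse as a block, 0 to 6 without 1 mouse (6 without mouse 138) and 0 without 2 mice. For the difference of effects 0 genes were called, 11 with DESeq2 and 7 with the block and without mouse 138, an alternative chosen after seeing the data. The cause of these changes was not tested. With quality weights, 26 Nduf genes were higher in knockout muscle and 12 in knockout fat. With 4 mice a group, the median SE of 0.096 in muscle and 0.18 in fat limits what could be detected.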
